A study of Arabidopsis thaliana with 6 samples.

Results

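The induction of AGL24 was followed by comparing 2 arrays of estradiol-treated HY213 seedlings with 2 arrays of mock-treated HY213 seedlings, which are 4 of the 6 arrays of the series. The members were taken by their titles, and estradiol was set against mock within each replicate number on log2 values of 22746 probe sets. All seedlings were Arabidopsis thaliana, sampled at 9 days of age after 8 h of treatment. Estradiol-treated HY213 and mock-treated HY213 have 2 arrays each, as has estradiol-treated wild type (WT), which stands beside them below. The ecotype label reads Columbia on 5 arrays and is absent from the mock replicate 1 array. HY213 is taken here to be the pER22-AGL24 line, because it is the only line named beside the wild type, and pER22 is a vector of the estradiol-inducible XVE type. The mock and estradiol groups of HY213 therefore share the transgene and differ in the chemical, so an effect of AGL24 and an effect of estradiol cannot be told apart from these 4 arrays alone. The sources used here give neither the number of insertion lines behind HY213 nor the number of seedlings in a pool.

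AGL24 is a MADS-box transcription factor that promotes the transition from vegetative growth to flowering and later acts in the young floral meristem. In the XVE system a constitutively made chimeric protein joins a DNA-binding domain and an activation domain to the hormone-binding part of the human estrogen receptor. Estradiol releases this protein to switch on the transgene, so a pulse of the chemical gives a pulse of AGL24 in tissue that otherwise makes little of it.

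AGL24 (AT4G24540) was the probe set with the lowest p-value on the array, and it rose. It read 106 and 401 intensity units in estradiol-treated HY213, replicates 1 and 2, against 4.98 and 4.87 in mock-treated HY213. Estradiol-treated WT read 5.05 and 4.60. The groups did not overlap, and both mock arrays and both WT arrays lay below the highest Bacillus control probe set of their array, a transcript that plants do not make and that here marks background. Against mock at that control, AGL24 was at least 17.2-fold higher in replicate 1 and at least 78.1-fold higher in replicate 2. As a group (geometric mean) this bound was 36.7-fold. The induced level itself was 3.78 times higher in replicate 2 than in replicate 1. In limma with the replicate number as a block, the log2 difference from mock was 5.39 ± 0.43 (SE, n = 2 arrays each) with an adjusted p of 0.0264. The difference from estradiol-treated WT, which shares the estradiol HY213 arrays, was 5.42 ± 0.43 with an adjusted p of 0.0252. The call against mock was lost without the block (adjusted p = 1), with a pseudocount of 16 (0.337) or 64 (0.997), with background values set to the Bacillus control (0.064), without the mean-variance trend (0.990) and with a robust prior (0.6685). In the fits that left out 1 HY213 array the log2 difference was 4.39 to 6.39. A lone array then stands for its group, so the spread within that group is not measured.

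**Figure D1:**
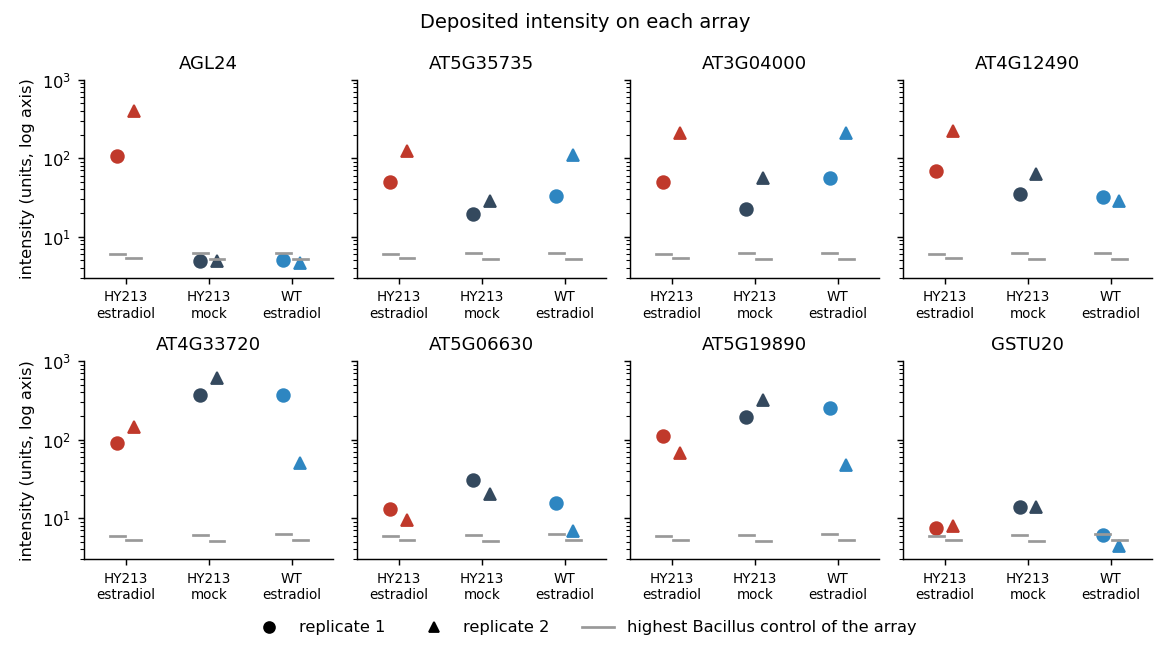
Deposited intensity (log axis) of AGL24, 3 other genes that read higher after estradiol and 4 that read lower, on each array of estradiol HY213, mock HY213 and estradiol WT; circles are replicate 1, triangles replicate 2 and grey bars the highest Bacillus control of each array. AGL24 stands at 106 and 401 in estradiol HY213 and below the control on the other 4 arrays, while AT3G04000 stands as high in estradiol WT (55.6 and 210) as in estradiol HY213 (50.5 and 209).

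AGL24 was the only call among 22746 probe sets, 1 higher (0.0044%) and 0 lower (0%) at an adjusted p of 0.05 in limma. At an unadjusted p under 0.05 in limma there were 979 (4.3%), where 5% are expected by chance if no probe set differs. Of the 979, 562 were higher (2.47%) and 417 lower (1.83%). The same count was 825 (3.63%) for estradiol HY213 against estradiol WT and 1248 (5.49%) for estradiol WT against mock HY213, a comparison with 0 calls. The count rested on single arrays: it was 159 without mock replicate 1, 22 without estradiol replicate 1, 9 without mock replicate 2 and 1 without estradiol replicate 2, fits in which a lone array is assumed to vary like the others. Mock replicate 1 also had the highest 3′ to 5′ ratio of the actin control (3.87), and the part of this in the count was not tested. The 2 replicates differed in how many probe sets stood far apart. In replicate 1, 20 probe sets were at least 2-fold higher (0.0879%) and 18 at least 2-fold lower (0.0791%) after estradiol. In replicate 2, 133 were higher (0.585%) and 77 lower (0.339%). Both replicates together gave 9 probe sets 2-fold higher (0.0396%), which is 45% of those in replicate 1 and 6.77% of those in replicate 2. They gave 2 lower (0.00879%), AT4G33720 and AT5G06630, which is 11.1% of those in replicate 1 and 2.60% of those in replicate 2. At 1.5-fold, 33 were higher (0.145%) and 15 lower (0.0659%) in both, and 18 moved in opposite directions. Those at least 2-fold higher in replicate 2 had a median log2 difference of 0.16 in replicate 1.

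Across all probe sets the log2 differences of replicate 1 and replicate 2, which share no array, correlated with r 0.0585, and with r 0.0366 over the 12581 probe sets above the Bacillus controls on all 4 arrays. Probe sets are not independent replicates, so these values only describe the arrays. The spread of the differences (SD) was 0.177 in replicate 1 and 0.147 in replicate 2 for the 12296 probe sets that averaged under 8 units, and 0.294 and 0.35 for the 5866 between 8 and 32 units. Among those under 8 units, 0 were 2-fold higher in replicate 1 and 23 in replicate 2, although their SD was smaller in replicate 2.

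**Figure D2:**
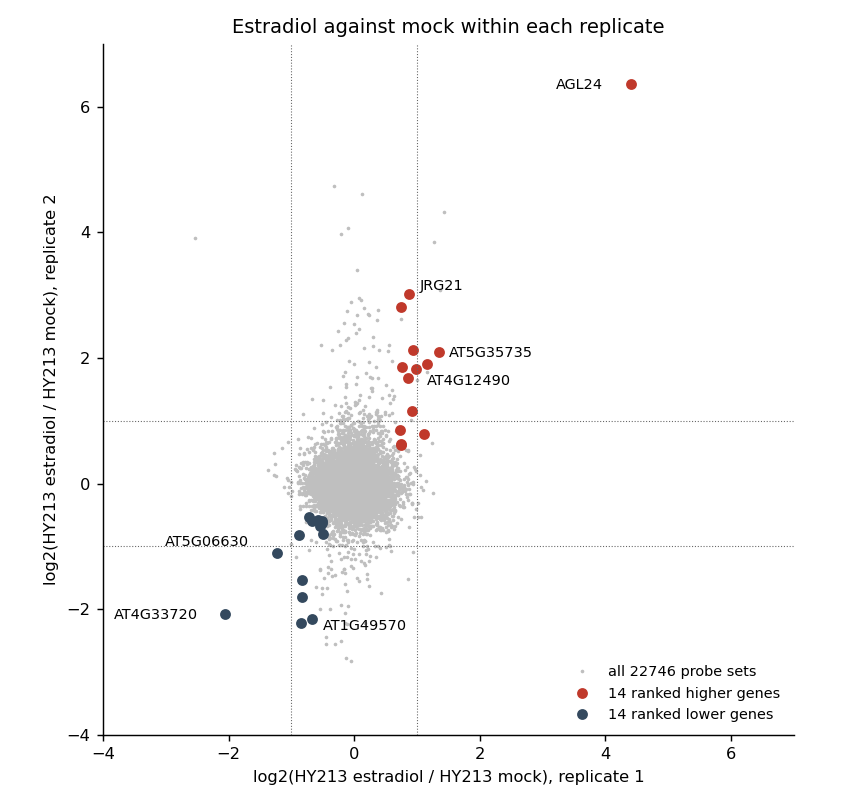
Log2 ratio of estradiol to mock HY213 in replicate 1 (x axis) and replicate 2 (y axis) for 22746 probe sets (grey), with the 14 ranked higher genes in red and the 14 ranked lower genes in dark blue; dotted lines mark 2-fold. AGL24 lies alone at the upper right, and more probe sets lie beyond 2-fold along the replicate 2 axis (133 higher, 77 lower) than along the replicate 1 axis (20 higher, 18 lower).

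Beyond AGL24, genes were ranked by the smaller of their 2 within-replicate differences, among genes above background in both arrays of the higher group. The 14 highest and 14 lowest are described here. They were chosen by this contrast, so their values are a description, and none but AGL24 passed the adjusted threshold (lowest adjusted p 0.788 in each direction). The choice also favours groups that do not overlap, and the share of such probe sets over the whole array was not counted. The last gene inside the higher list had a smaller difference of 0.62 (log2) and the next outside 0.60, and in the lower list these were -0.49 and -0.49. In bulk seedlings, fewer cells of a type and less RNA per cell cannot be told apart.

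Among the ranked higher genes, AT5G35735, which encodes an auxin-responsive family protein with a cytochrome b561 domain, read 49.4 and 123 in estradiol-treated HY213 against 19.5 and 28.8 in mock-treated HY213. That is 2.54- and 4.29-fold, with no overlap between the groups and a log2 difference of 1.72 ± 0.27 (SE). The short-chain dehydrogenase gene AT3G04000 read 50.5 and 209 against 22.5 and 56.0 (log2 difference 1.54 ± 0.22). Here the groups overlapped, since mock replicate 2 lay above estradiol replicate 1, although each replicate was more than 2-fold higher. A second short-chain dehydrogenase gene, AT4G13180, read 38.7 and 43.4 against 20.5 and 19.5, an even difference of 1.89- and 2.23-fold in the 2 replicates. AT4G20860 encodes a berberine bridge enzyme-like flavoprotein, a family that oxidises carbohydrates and alcohols. It read 25.2 and 105 against 13.8 and 32.8 (1.27 ± 0.22), and its groups overlapped in the same way.

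The class III peroxidases are secreted haem enzymes that cross-link or loosen wall polymers, and they stood on both sides. PRX72 (AT5G66390), a peroxidase of lignin formation, read 19.7 and 50.6 in estradiol-treated HY213 against 10.3 and 11.6 in mock-treated HY213, a log2 difference of 1.53 ± 0.28. The peroxidase gene AT4G36430 read 24.4 and 44.9 against 14.4 and 12.4, with a wider error (1.31 ± 0.61). In the other direction, the peroxidase gene AT5G19890 read 109.9 and 67.7 in estradiol-treated HY213 against 197 and 317 in mock-treated HY213, a log2 difference of -1.53 ± 0.56. AT1G34510 read 14.2 and 5.91 against 25.2 and 17.1 (-1.18 ± 0.31), and AT1G49570 read 22.7 and 36.7 against 35.9 and 164 (-1.41 ± 0.56). For both genes of the last sentence and for AT5G19890 the difference was larger in replicate 2. In AT1G49570 the groups overlapped by less than a unit, while in AT1G34510 and AT5G19890 they did not overlap.

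JRG21 (AT3G55970), an oxygenase gene named for its response to jasmonate, read 12.4 and 116 in estradiol-treated HY213 against 6.73 and 14.2 in mock-treated HY213. Its difference was 1.84-fold in replicate 1 and 8.14-fold in replicate 2, the widest step between the replicates on the log2 scale among the ranked genes. Its groups overlapped, since mock replicate 2 lay above estradiol replicate 1. AT3G22060, which encodes a small cysteine-rich secreted protein, read 7.38 and 38.2 against 4.38 and 5.45, or 1.68- and 7.01-fold. Its mock replicate 1 value lay below the Bacillus control of that array. AT4G12490, a lipid transfer protein-like gene of the AZI1 and EARLI1 cluster, whose members act in defence priming, read 68.97 and 224 against 34.99 and 63.3 (1.40 ± 0.37).

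The rest of the higher list showed smaller and more even differences. AT5G12010 read 65.9 and 98.7 in estradiol-treated HY213 against 30.3 and 57.0 in mock-treated HY213, or 2.17- and 1.73-fold. AT5G12420, a gene of the wax ester synthase family, read 15.8 and 13.4 against 9.50 and 7.43 (0.79 ± 0.14). AT2G43620, a chitinase family gene, read 16.2 and 15.8 against 9.63 and 10.3, or 1.69- and 1.53-fold. AT4G18280, a glycine-rich cell wall protein gene, read 30.4 and 35.5 against 18.2 and 22.8 (0.69 ± 0.19). AT4G18280 and the 3 genes before it had both estradiol arrays above both mock arrays.

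Among the ranked lower genes, AT4G33720, which encodes a secreted protein of the PR-1 family, read 90.5 and 144 in estradiol-treated HY213 against 375 and 609 in mock-treated HY213. It was 4.14-fold lower in replicate 1 and 4.22-fold lower in replicate 2, with a log2 difference of -2.06 ± 0.73. In a fit of the 4 HY213 arrays alone, which has 1 residual degree of freedom, AT4G33720 also passed the threshold (adjusted p 0.00353). AT5G06630, a proline-rich extensin-like gene, read 13.0 and 9.36 against 30.5 and 20.1, or 2.34- and 2.15-fold lower. Its probe set is of a type that may also detect transcripts of similar sequence. Extensins are structural glycoproteins of the wall, and those of this type are known from root hairs. AT3G07010, a pectate lyase family gene, read 15.95 and 8.19 against 22.4 and 14.3 (-0.65 ± 0.15). AT3G53980, a lipid transfer protein-like gene, read 17.3 and 7.94 against 30.6 and 27.8 (-1.32 ± 0.45).

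GSTU20, a tau-class glutathione transferase gene, read 7.56 and 7.93 in estradiol-treated HY213 against 13.9 and 13.97 in mock-treated HY213, a log2 difference of -0.85 ± 0.16. Its replicates were close within each group and the groups did not overlap. The glutaredoxin gene AT4G15680 read 34.9 and 23.7 against 52.1 and 35.4, which is 1.49-fold lower in each replicate. AT1G28680, the coumarin synthase gene COSY, read 10.8 and 13.2 against 15.4 and 19.9 (-0.56 ± 0.16). AT4G16563, an aspartyl protease gene, AT1G50040, AT3G02190 and AT4G25730 completed the list, with log2 differences of -0.63, -0.63, -0.61 and -0.57. The groups also overlapped for AT3G07010, AT4G16563 and AT4G25730.

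Several ranked genes lie in clusters of related genes, and their neighbours, picked after the values were seen, are given as a description. AT4G12500, the neighbour of AT4G12490 by locus number, read 31.0 and 59.3 in estradiol-treated HY213 against 14.9 and 43.2 in mock-treated HY213 (0.76 ± 0.30). AT4G20830, a second berberine bridge enzyme-like gene near AT4G20860, read 28.8 and 126 against 19.3 and 51.5 (0.93 ± 0.23). AT4G12500 and AT4G20830 were higher in each replicate (25.6% of all probe sets were), and the groups overlapped for both genes. Other neighbours on the array lay near or below background: AT4G12530 read 4.70 and 4.61 against 5.19 and 4.50, AT4G20800 read 4.71 and 4.50 against 5.36 and 4.48, and AT4G20820 read 6.03 and 5.07 against 5.37 and 5.05. Of these, AT4G12530 and AT4G20800 were lower in replicate 1 and slightly higher in replicate 2, and AT4G20820 was higher in both, barely so in replicate 2. The CC-type glutaredoxins, small thiol enzymes that bind TGA transcription factors, form a cluster around AT4G15680. AT4G15660 read 10.7 and 11.0 against 14.2 and 16.5, AT4G15690 read 6.75 and 6.38 against 9.69 and 8.33, and AT4G15700 read 52.9 and 42.9 against 59.2 and 63.98. All 3 were lower in each replicate (24.2% of all probe sets were), with log2 differences of -0.49, -0.45 and -0.37, and whether probes for such similar genes share signal was not tested. Beside AT4G33720, AT4G33730 read 5.52 and 4.97 against 7.32 and 7.40 (-0.49 ± 0.10), with both estradiol arrays below the Bacillus control. AT4G33710 read 5.55 and 5.36 against 6.68 and 5.43.

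Estradiol-treated WT has the chemical without the HY213 transgene, in another line. The series has no mock-treated WT, so whether WT changed under estradiol cannot be read from these arrays. Against mock-treated HY213, line and chemical differ together. WT values of some of the ranked genes are given here. AT3G04000 read 55.6 and 209.6 in WT and AT4G13180 read 34.0 and 46.5. For these 2 genes estradiol HY213 minus estradiol WT was -0.07 ± 0.22 and 0.04 ± 0.19 (log2, SE), so the lines differed by less than the error. AT4G20860 read 27.0 and 85.9 in WT, and AT5G35735 read 33.4 and 109, with line differences of 0.10 ± 0.22 and 0.37 ± 0.27. AT4G12490 read 32.4 and 28.8 in WT, below all 4 HY213 arrays, and the line difference was 2.03 ± 0.37 (adjusted p 0.996 in limma). Its neighbour AT4G12500 read 20.01 and 21.996 in WT, a line difference of 1.03 ± 0.30. AT5G12420 read 9.92 and 9.35 in WT and AT2G43620 read 10.15 and 11.02, near mock-treated HY213, with line differences of 0.60 ± 0.14 for each. For PRX72 WT read 12.4 and 29.0, between the HY213 groups, a line difference of 0.73 ± 0.28. None of these line differences passed the adjusted threshold, where AGL24 was the only call (0.0044%). The ranked higher genes were chosen for high values on the same estradiol HY213 arrays. That choice favours positive line differences, so these are a description and not a test.

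For the ranked higher gene AT4G36430 the 2 WT arrays disagreed. WT read 8.96 in replicate 1, below mock-treated HY213, and 76.3 in replicate 2, above estradiol-treated HY213. Among the lower genes the 2 WT arrays often disagreed as well. AT4G33720 read 369 and 51.0 in WT, next to mock-treated HY213 in replicate 1 and below estradiol-treated HY213 in replicate 2. The peroxidase gene AT5G19890 read 255 and 48.1 in WT, above mock-treated HY213 in replicate 1 and below estradiol-treated HY213 in replicate 2. AT1G34510 read 26.0 and 5.98 and AT1G49570 read 73.7 and 40.6. Both lay above mock-treated HY213 in replicate 1 and just above estradiol-treated HY213 in replicate 2. AT3G53980 read 75.9 and 12.8 in WT. AT5G06630 read 15.7 and 6.93, close to estradiol-treated HY213 in both replicates, with a line difference of 0.08 ± 0.20. AT3G07010 read 14.7 and 8.26 in WT and AT4G25730 read 33.9 and 15.2. Both also lay close to estradiol-treated HY213, with line differences of 0.05 and 0.06. GSTU20 read 6.02 and 4.38 in WT, both below the Bacillus control and lower than in either HY213 group, with a line difference of 0.59 ± 0.16. The comparisons with mock and with WT share the estradiol HY213 arrays, so they are set side by side and not counted against each other.

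**Figure D3:**
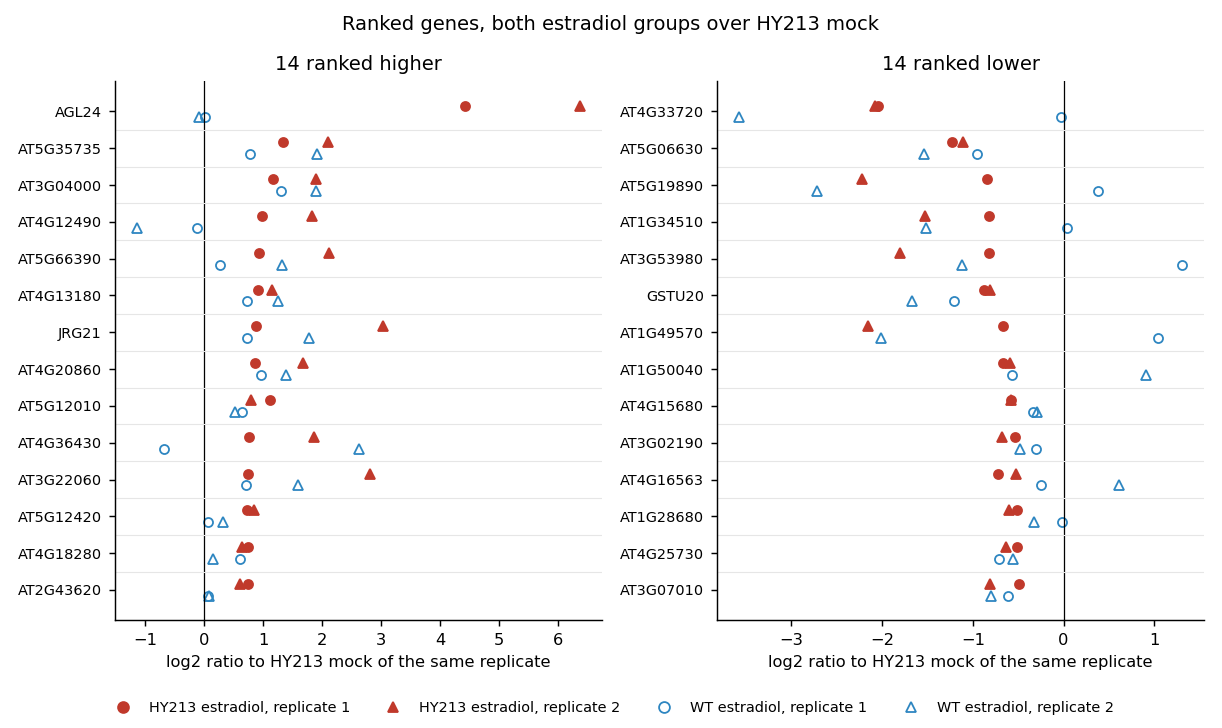
Log2 ratio to mock HY213 of the same replicate for the 14 ranked higher (left) and 14 ranked lower genes (right), in estradiol HY213 (filled red) and estradiol WT (open blue), with circles for replicate 1 and triangles for replicate 2. WT lies beside HY213 for AT3G04000 and AT4G13180, near 0 for AGL24, below 0 for AT4G12490, and on both sides of 0 for AT5G19890 and AT1G49570. There is no mock-treated WT, so the WT ratio holds both the line and the chemical.

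Of the 9 probe sets that were 2-fold higher within both replicates, 3 are listed for 1 gene (AGL24, AT5G35735 and AT3G04000) and the others have no single gene name here. The widest difference of these was 2.88 (log2) for 267238_at, which read 171 and 748 in estradiol-treated HY213 against 63.0 and 37.4 in mock-treated HY213, and 140.1 and 661 in estradiol-treated WT. 257654_at read 46.1 and 477 against 19.1 and 33.3, and 17.3 and 499.9 in WT, so that in replicate 1 WT read no higher than mock-treated HY213. 266743_at read 65.2 and 63.6 against 29.3 and 18.5, and 47.4 and 22.1 in WT. Its level was nearly the same in the 2 estradiol HY213 arrays. The remaining 3 (251438_s_at, 252170_at and 253268_s_at) had log2 differences of 2.22, 1.33 and 1.41. For them estradiol HY213 minus estradiol WT was 0.14, 0.38 and -0.09. At 2-fold, 1 probe set went in opposite directions: 245275_at read 8.55 and 121 in estradiol-treated HY213 against 49.5 and 8.03 in mock-treated HY213, high on 1 array of each group.

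Genes of pathways known to act with AGL24, or with the growth of seedlings, were read from lists. Genes whose probe sets have no single gene name here could not be read, so the lists may hold only part of each pathway. Flowering-time regulators had 11 measured genes, of which 0 passed in either direction (0 at an unadjusted p under 0.05 in limma). 3 were higher in both replicates (background 25.6%) and 4 lower (background 24.2%), and the list's median log2 difference was -0.06 where all probe sets had -0.0018. Of the 11 genes, 7 lay above the Bacillus controls in both arrays of a group. SMZ, an AP2-type repressor of flowering, read 8.68 and 9.45 in estradiol-treated HY213 against 8.07 and 8.03 in mock-treated HY213 (0.17 ± 0.13). FD and AGL72, which had the lowest p in the list, read below the Bacillus controls in all 4 arrays. The MADS-box list, of 42 probe sets for 40 genes, contains AGL24 itself as its 1 called member. Apart from AGL24, 1 member was higher at an unadjusted p under 0.05 (AGL82, 5.36 and 5.21 against 4.42 and 4.86, below the control) and 0 were lower. Over all probe sets these shares were 2.47% and 1.83%. AGL65 read 5.79 and 4.83 against 6.58 and 5.49. Only 9 of the 42 probe sets lay above the controls in both arrays of a group.

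Hormone lists were small and mostly flat. In the auxin list of 17 genes 0 passed, with 2 higher and 1 lower at an unadjusted p under 0.05 (backgrounds 2.47% and 1.83%) and a median of 0.0024. GH3.3, which encodes an enzyme that conjugates auxin to amino acids, read 24.3 and 225 in estradiol-treated HY213 against 21.9 and 50.2 in mock-treated HY213, and GH3.17 of the same family read 18.6 and 12.2 against 15.8 and 7.41. GH3.3 differed mainly in replicate 2, by 4.48-fold against 1.11-fold in replicate 1, and WT read 35.4 and 249. Of 6 gibberellin genes 0 passed (0 at an unadjusted p under 0.05), and the receptor gene GID1B read 23.5 and 31.9 against 18.3 and 27.5. GID1B was the 1 gene of this list higher in both replicates (background 25.6%), and 2 were lower in both (background 24.2%). These were GID1C, at 7.34 and 7.375 against 7.78 and 8.77, and SPY, at 35.6 and 33.5 against 38.8 and 36.7. Of 6 cytokinin genes 0 passed and 1 was lower at an unadjusted p under 0.05, the type-A response regulator RR16, at 4.62 and 5.31 against 6.82 and 6.21. Of 3 jasmonate genes 0 passed and 1 was higher at an unadjusted p under 0.05, the thionin gene THI2.1, at 7.09 and 5.93 against 5.21 and 5.15. The light, ethylene, brassinosteroid and salicylate lists had 1 measured gene each, HYH, EIN3, BRL1 and WRKY53, with log2 differences of 0.08, -0.09, -0.07 and -0.16 and 0 passing (0 at an unadjusted p under 0.05).

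The lists and their members were chosen with earlier results of these data known, so the order of the lists is a description. The cold and drought list had the highest median of the lists, 0.37 over 5 genes. 0 passed, and 3 were higher at an unadjusted p under 0.05 (background 2.47%), the same 3 that lay above the controls. The dehydrin gene LTI30, whose product protects membranes, read 107 and 242 in estradiol-treated HY213 against 72.5 and 91.1 in mock-treated HY213 (0.99 ± 0.24). The zinc-finger repressor gene STZ read 18.1 and 80.0 against 13.9 and 25.0, and the dehydrin gene COR47 read 751 and 602 against 533 and 511. In estradiol-treated WT these 3 read 95.5 and 205 (LTI30), 16.8 and 104 (STZ) and 733 and 640.4 (COR47), and their line differences were 0.20, -0.14 and -0.03. Of 3 heat-shock genes 0 passed and 1 was higher at an unadjusted p under 0.05, the chaperone gene Hsp70-2, at 9.71 and 17.9 against 7.45 and 10.2.

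**Figure D4:**
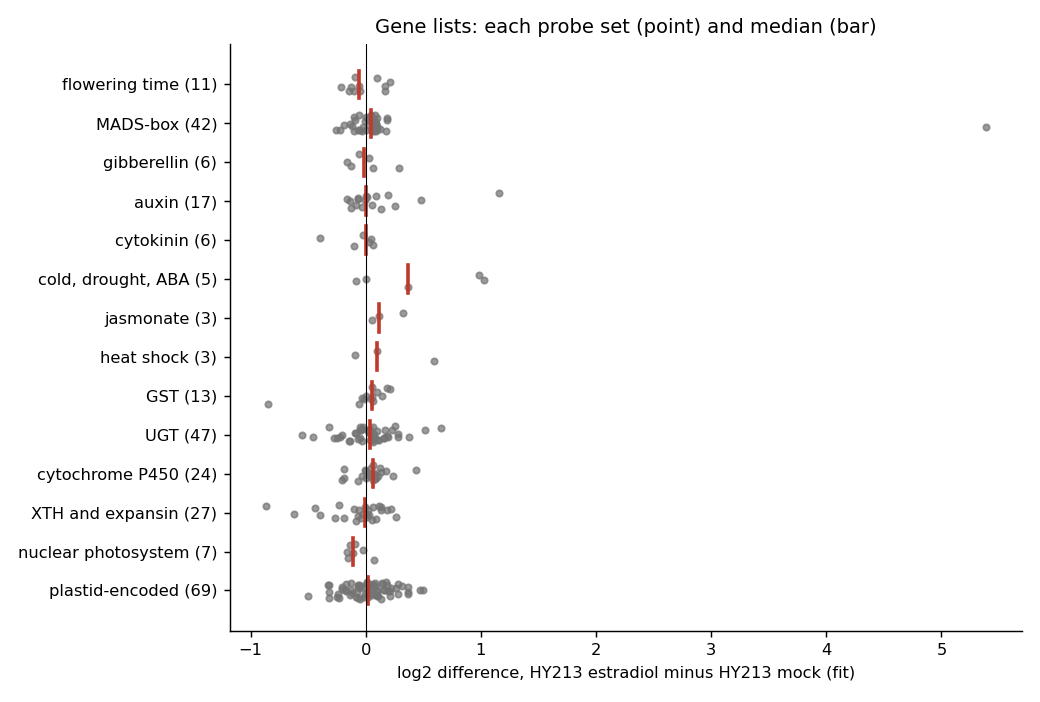
Log2 difference of estradiol minus mock HY213 from the limma fit for every probe set (points, jittered vertically) of the pathway and family lists with 3 or more genes (tissue marker lists are not drawn), with the list median as a red bar and the number of probe sets in brackets. All the lists drawn except cold, drought and ABA (0.37) have medians between -0.11 and 0.11, and AGL24 (5.39) is the single point far to the right in the MADS-box list.

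Families of detoxifying and wall enzymes were read in the same way. Over all probe sets, 2.47% were higher and 1.83% lower at an unadjusted p under 0.05 in limma. Of 13 glutathione transferase genes 0 passed, with 1 higher (GSTU22) and 1 lower (GSTU20) at an unadjusted p under 0.05 and a median of 0.05. GSTU22 read 4.80 and 5.84 in estradiol-treated HY213 against 4.48 and 4.80 in mock-treated HY213. Among the HY213 arrays only estradiol replicate 2 lay above the Bacillus control for GSTU22. Of 47 UDP-glycosyltransferase genes, which attach sugars to hormones and secondary metabolites, 0 passed, with 0 higher and 2 lower at an unadjusted p under 0.05. These were UGT76C2, which glycosylates cytokinins, at 14.8 and 10.2 in estradiol-treated HY213 against 18.7 and 17.3 in mock-treated HY213, and UGT71C3, at 5.37 and 5.57 against 6.58 and 6.67. In the opposite direction UGT87A2, which promotes flowering, read 42.4 and 129 against 34.9 and 93.3 (0.37 ± 0.19). Of 24 cytochrome P450 genes 0 passed (0 at an unadjusted p under 0.05), and CYP71B23 read 66.5 and 85.9 against 41.7 and 74.7. Of 27 xyloglucan endotransglucosylase and expansin genes, which remodel and loosen the wall, 0 passed, with 1 higher (EXLA3) and 2 lower at an unadjusted p under 0.05. EXLA3 read 5.28 and 5.45 against 4.39 and 4.84, and again only estradiol replicate 2 of the HY213 arrays lay above the control. The 2 lower genes were XTH33, which was 1.38- and 1.34-fold lower within the replicates, and the root hair expansin EXPA18, at 18.6 and 9.56 against 24.2 and 17.4.

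Photosynthesis genes differed little. Of 7 nuclear photosystem genes 0 passed (0 at an unadjusted p under 0.05), with a median of -0.11, and LHCB4.1, an antenna protein of photosystem II, read 908 and 1123 in estradiol-treated HY213 against 1024 and 1129 in mock-treated HY213. LHCB4.2, of the same antenna family, read 351 and 494 against 441 and 485. PSAE-1, a subunit of photosystem I, read 785 and 1131 against 777 and 1326. Both had 1 replicate higher and 1 lower. Of 69 plastid-encoded genes 0 passed, with 2 higher and 1 lower at an unadjusted p under 0.05 (backgrounds 2.47% and 1.83%) and a median of 0.02. The 2 higher genes were psbE, a cytochrome b559 subunit of photosystem II, at 400.1 and 446 against 254 and 353, and ndhH, a subunit of the plastid NDH complex, at 16.1 and 9.97 against 11.3 and 8.50. 25 of the 69 were higher in both replicates (background 25.6%) and 9 lower (background 24.2%).

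Of the tissue markers, 3 leaf genes and 2 root hair genes had a named probe set and were above the controls, and no gene of the seed and vascular lists had one. The summed leaf markers (RCA, PRK and LHCB4.1) stood at 1454 and 2073 in estradiol-treated HY213 against 1792 and 2148 in mock-treated HY213, and 3 of 3 were lower in both replicates (background 24.2%). The summed root hair markers (EXPA7 and EXPA18) stood at 40.2 and 23.5 against 47.4 and 34.2, and 2 of 2 were lower in both replicates. Leaving out 1 array turned the direction of 3 of these 5 markers: without mock replicate 1 the log2 difference was 0.27 for RCA and 0.11 for PRK, and without mock replicate 2 it was 0.012 for EXPA7. The flower marker AMS read below the controls on all 4 arrays. The ratio of 3′ to 5′ actin control probe sets, a sign of RNA integrity, was 2.01 and 1.86 in estradiol-treated HY213, 3.87 and 1.89 in mock-treated HY213 and 2.80 and 2.06 in WT, so mock replicate 1 had the highest. The part of tissue make-up and of RNA integrity in the differences above was not tested. Array medians lay between 6.95 and 7.27 units, and the highest Bacillus controls between 5.14 and 6.22.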

How the data were processed

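Biotin-labelled total RNA of 6 seedling samples was hybridised to Affymetrix arrays. Sample titles gave the groups and the replicate numbers. For 22810 probe sets the authors deposited linear, positive intensity values. MAS5 and RMA appear in the submitters' processing notes without a role, so the program behind the table and the scaling of the arrays are not given in the sources used here. After 64 control probe sets were left out, 22746 remained, of which 13513 are listed for 1 gene in the platform annotation, 503 for several and 8730 for none. RefSeq TAIR10.1 gave symbols for 13436 of the 13513. Unlisted probe sets are unnamed here, and sequences and coordinates are not used here.

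Log2 intensities, with no pseudocount, entered a linear model over the 3 groups and, as a block, the replicate number (2 residual degrees of freedom). The limma package 3.58.1 was used under R 4.3.3, its eBayes step taking a trend of variance on mean, and p-values were adjusted by the Benjamini-Hochberg method over all 22746 at 0.05. The block follows the rule that the comparison is made within replicate number. Deviations from the group means correlated between same-numbered arrays with r 0.627 for estradiol and mock HY213 and 0.606 and 0.779 for the pairs with WT, and the first principal component held 65.1% of the variance. The number of arrays limits the precision. The labels' design text speaks of independent pools; nothing further says whether the replicates are separate cultures, so p-values measure the spread between these samples.

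Genes were named by rule: AGL24, any call, the 14 highest and 14 lowest single-gene probe sets by the smaller within-replicate difference, and up to 3 members of each list by p. Neighbours and unlisted probe sets were picked after their values were seen. Members and lists were chosen with earlier results of these data known; the matching of 3 lists to symbols (plastid, heat-shock and P450 genes) was corrected against the annotation. The fit was also run on simulated data with known changes and independent normal noise. Such noise holds no effect of a single array, so that run does not address how the count depends on single arrays. The alternatives covered normalization by quantiles or medians, a pseudocount (1, 16 or 64), a filter on dim probe sets, no block, the 4 HY213 arrays alone, other variance priors, background values set to the Bacillus control, an adjusted p of 0.1, a 1.5-fold minimum and each HY213 array left out.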

Additional observations from a re-analysis of the deposited data

How the results depend on the processing

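The count of 1 call was 0 with a pseudocount of 16 or 64, without the mean-variance trend, with a robust prior, with no replicate block, and with a pseudocount of 16 and no replicate block together, a setting added after the data were seen. It was 2 for the 4 HY213 arrays alone, AGL24 and AT4G33720, and from 1 to 159 with 1 array left out. AGL24 kept its direction in all 16 alternatives but not its call: its log2 difference was 3.43 with a pseudocount of 16 (adjusted p 0.337), 2.03 with 64 (0.997), 5.20 with background values at the Bacillus control (0.064), and 5.39 without the trend (0.990), with the robust prior (0.6685) and with no replicate block (1). With the pseudocount of 16 and no replicate block it was 3.43 (1), and leaving out single arrays gave 4.39 to 6.39. The count 2-fold higher within both replicates was 3 and 1 with pseudocounts of 16 and 64, where dim probe sets are shrunk, 33 at 1.5-fold, and from 20 to 133 within a single replicate. The count lower was 1 with a pseudocount of 16 and 1 with 64, 15 at 1.5-fold, and from 18 to 77 within a single replicate.

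Of the 79 other probe sets named, 66 kept their direction in every alternative, and 74 in every alternative that keeps the 6 arrays. FD, AGL72, AT4G12530 and AT4G20800 went to 0.0022 with all HY213 values at the Bacillus control, by construction, and HYH to -0.027 under that setting. With 1 array left out, 245275_at ranged from -1.94 to 3.32, EXPA7 from -0.39 to 0.012, LHCB4.2 from -0.34 to 0.038, PSAE-1 from -0.235 to 0.021, RCA from -0.87 to 0.27, PRK from -0.68 to 0.11, HYH from -0.092 to 0.26, AMS from -0.017 to 0.078, EIN3 from -0.27 to 0.089 and AT4G12530 from -0.135 to 0.028. Of the 79, 26 passed in some alternative, 25 of them without mock replicate 1, and the cause was not tested. Signal over background limits the dim genes, most of the MADS-box list among them.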
